A study of Mus musculus with 6 samples.

Results

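The genes described here lie along mouse chromosome 7 around Dll3, and were picked by name for their place near that gene. Of 43 named genes, 34 had a probe set of their own on the array. These 34 genes were read by 45 probe sets, out of 22626 probe sets and 12393 genes measured in all. A probe set is the group of short probes on the array that together report 1 transcript. Nothing measured entered the naming of the probe sets, but the genes were listed with earlier results of these data known.

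Embryos homozygous for Dll3tm1Rbe, also written Dll3neo, were compared with wild-type embryos, both at 9.5 days post coitum, with C57BL/6 given as the strain of the wild type and C57BL/6-Dll3tm1Rbe/tm1Rbe as that of the mutant. The allele is named after neo, a drug resistance cassette used to select targeted embryonic stem cells. From each embryo the presomitic mesoderm level was cut off behind the newest somite with the allantois removed, a piece with tissue of all 3 germ layers, and embryos of a genotype were pooled. There were 3 mutant pools and 3 wild-type pools, each on 1 Affymetrix MOE430A array, so 6 arrays limit the precision of every value. All 3 mutant pools carry the cassette together with the chromosome segment around it, so the allele and its segment cannot be told apart in this design. Neither the number of embryos in a pool nor the breeding of the allele is stated in the labels.

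Judged by the values, the deposited value of a pool is relative to the middle of the 6 arrays for its probe set. This middle lies within 0.0011 of 1 for 92.8% of probe sets, all members among them, and below 1 for the rest. Such ratios compare pools, 1 probe set at a time, but hold no expression level, so whether a gene is on in this tissue, or whether tissue markers are present at all, cannot be read from them. Differences below are log2 values of the mutant minus those of the wild type, with the standard error (SE) and the p-value of a limma fit over all probe sets. A result passed when its Benjamini-Hochberg adjusted p over all 22626 probe sets was below 0.05. Genotypes are said not to overlap when all 3 mutant values lie on 1 side of all 3 wild-type values. In pooled bulk tissue, fewer cells of a type and less RNA per cell cannot be told apart.

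Neighbouring genes of a chromosome are often unrelated in function, and this stretch is a mixed one. It holds genes for transcription, translation, mitochondria, splicing and signalling that most cells use, beside genes best known from muscle, blood, gut or skin. Some neighbours are transcribed away from each other from starts that lie close together, an arrangement called a divergent pair, in which a short stretch serves as the promoter region of both genes. Dll3 itself encodes an unusual Notch ligand that is active in the presomitic mesoderm, where Notch signalling takes part in the clock that paces somite formation.

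In gene order, 39 of the 43 genes lay within 50 protein-coding genes of Dll3, 5 of them on the side of Akt2 and the rest on the side of Timm50. The other 4 are not neighbours of Dll3 by this order. Nudt19 lay 177 genes away, Nup62 308, Ptov1 314 and Bcat2 362, all on the Timm50 side. These 4 had stood among the leading genes of the genotype comparison in earlier results of these data, so counts over them describe that choice. They are kept apart below. No probe set of their own was found for 9 genes: Map3k10, Eid2, Gmfg, Nccrp1, Pak4, Fbxo27, Kcnk6, Yif1b and Sipa1l3. Gmfg had 2 probe sets that the annotation shares with Gmfg-ps, and these were not used.

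Promoter sequences from RefSeq (GRCm38.p6) were at hand for 37 of the 43 genes, and 4 divergent pairs stood out among them by position alone. Both genes of every pair were measured. The stretches between the starts are shown for the 3 pairs with the shortest ones, and the stretch before Hnrnpl because that gene had the largest difference. Each is given 5′ to 3′ on the plus strand, and capitals mark CCAAT or its reverse complement ATTGG, the letters of the CCAAT box that the factor NF-Y binds.
Sars2/Mrps12, between the starts, chr7:28741822-28741967: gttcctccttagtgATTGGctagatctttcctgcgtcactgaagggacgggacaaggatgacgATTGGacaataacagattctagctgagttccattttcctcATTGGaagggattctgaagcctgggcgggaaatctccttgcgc
Sirt2/Nfkbib, between the starts, chr7:28766645-28766751: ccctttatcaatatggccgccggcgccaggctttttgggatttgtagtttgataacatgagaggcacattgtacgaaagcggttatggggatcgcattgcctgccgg
Map4k1/Eif3k, between the starts, chr7:28981889-28982049: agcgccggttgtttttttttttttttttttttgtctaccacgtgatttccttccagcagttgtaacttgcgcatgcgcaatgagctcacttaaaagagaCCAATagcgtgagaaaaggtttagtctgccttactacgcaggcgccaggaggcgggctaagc
Hnrnpl, the 250 bases before the start, chr7:28810640-28810889: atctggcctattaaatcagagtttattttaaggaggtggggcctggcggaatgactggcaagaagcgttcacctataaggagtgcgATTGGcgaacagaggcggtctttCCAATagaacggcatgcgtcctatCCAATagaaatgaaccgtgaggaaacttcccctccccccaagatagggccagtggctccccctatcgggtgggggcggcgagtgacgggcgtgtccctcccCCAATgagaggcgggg

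The Hnrnpl stretch held 4 CCAAT boxes, the Sars2/Mrps12 stretch 3, the Map4k1/Eif3k stretch 1 and the Sirt2/Nfkbib stretch 0. These stretches differ in length, at 250, 146, 161 and 107 bases in that order. How many matches a mouse promoter usually holds was not counted, so the numbers have no background. Searched on both strands over the 250 bases before each start, the 5 letters were found in 25 of 50 member promoters and in 33.8% of 32851 mouse promoters. The 50 promoters belong to 37 genes, so some genes were counted by several starts. The windows of a divergent pair overlap, so a run between the starts can count for both genes. The member promoters are thus not independent of each other, and the shares were not tested. CCAAT was chosen for display after the sequences were seen. The core letters TGGGAA of the Notch effector RBPJ were found in 11 of the 50 (22.0%), against 21.6% of all promoters. CACGTG, an E-box that Hes and Hey repressors can bind, was found in 4 of the 50 (8.0%), against 6.0% of all. The RBPJ letters can share bases with either of the other motifs, such runs counted for both, and a match is only a run of letters. The fourth divergent pair, Paf1 and Med29, had 305 bases between its starts, too long to show here, and that stretch held 3 CCAAT boxes.

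Dll3, the targeted gene, fell. Its probe set 1449236_at read 0.480, 0.476 and 0.537 in the mutant pools, against 1.463, 1.633 and 2.007 in the wild-type pools. With a log2 difference of -1.76 (SE 0.14), it was the 1 probe set of 22626 that passed (0.00442%, limma adjusted p = 0.00691). Without any 1 of the mutant pools, or without wild-type pool 2, it no longer passed (limma adjusted p from 0.0627 to 0.0924), at log2 differences from -1.82 to -1.73. Of the 45 member probe sets 0 passed. An unadjusted limma p below 0.05 was reached by 9 of the 45, where the whole array gave 1.16%. Of these 9, 6 were higher in the mutant (array background 0.61%) and 3 lower (0.548%). All 4 of the distant genes were among them, with 5 of the 9 probe sets, which left 4 of the 36 probe sets within 50 genes of Dll3.

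Genotypes did not overlap for 7 of the 45 member probe sets, 6 higher (array background 3.05%) and 1 lower in the mutant (background 1.99%), where the whole array gave 5.03%. Again 4 of these 7 belonged to the distant genes. Within 50 genes of Dll3 there were 3 of 36, or 8.33%, all higher in the mutant: Hnrnpl, Sars2 and Zfp30. A log2 difference of at least 0.4 in size was found for 8 member probe sets, 3 of them within 50 genes, beside 0.968% of the array. Over all 45 the median difference was 0.0075, with 24 higher and 21 lower by sign. Over the whole array 49.1% were higher and the median was -0.0021. Differences thus had both signs along the stretch, and the sizeable ones sat in a few single genes.

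**Figure D1:**
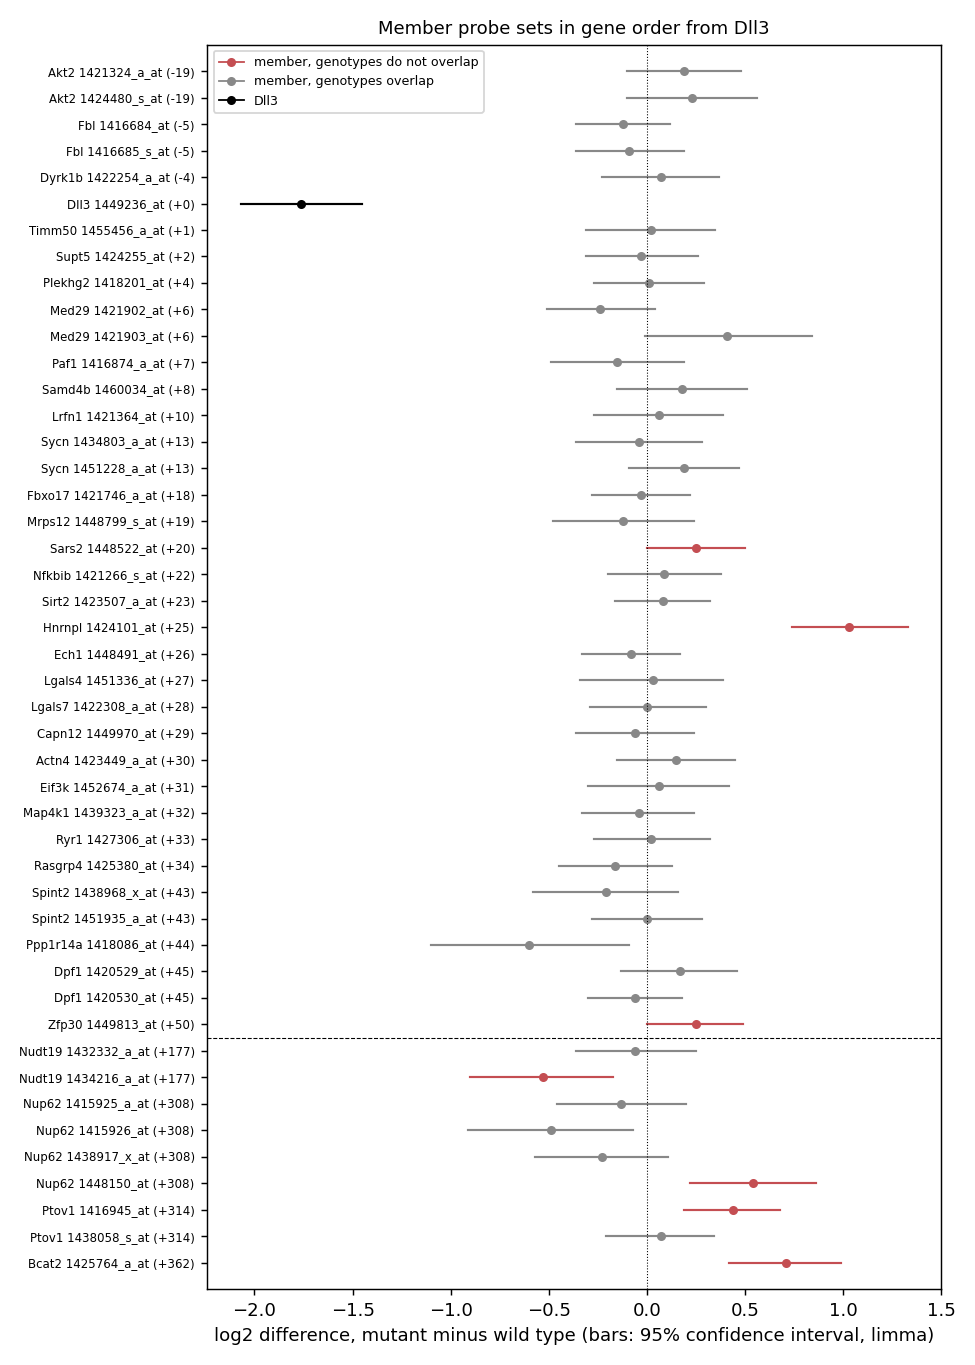
Log2 difference (mutant minus wild type) of each of the 45 member probe sets and of Dll3, ordered down the page by gene order, with the number of protein-coding genes from Dll3 in brackets, where bars are 95% confidence intervals of limma. Hnrnpl at 1.03 stands apart among the genes within 50 of Dll3 (above the dashed line), and most of the others lie between -0.24 and 0.25.

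Hnrnpl, a regulator of alternative splicing that binds CA-rich RNA, lay 25 genes from Dll3 and had the largest difference of all members. Its 1 probe set, 1424101_at, read 1.390, 1.328 and 1.257 in the mutant pools, against 0.553, 0.660 and 0.743 in the wild-type pools. All mutant pools sat close together, well above the highest wild-type pool. The means were 1.32 ± 0.0666 in the mutant and 0.652 ± 0.0953 in the wild type (SD, n = 3 each). Taken from the log2 difference, the mutant was 2.05-fold higher. The log2 difference of 1.03 (SE 0.13, 95% interval 0.74 to 1.33) had the second smallest p of the array, yet it did not pass (limma adjusted p = 0.233). With quantile normalization between arrays it passed (log2 difference 1.07, limma adjusted p = 0.036), as it did with arrays weighted by quality (limma adjusted p = 0.000794). Quantile normalization, run on ratios already scaled by probe set, also moved the log2 difference of Dll3 from -1.76 to -2.38. The weighted fit stopped short of its convergence tolerance and gave 16.1% of the whole array an unadjusted p below 0.05, against 1.16% without weights. Under the other ways of processing that kept all pools, Hnrnpl did not pass (limma adjusted p from 0.159 to 0.673). Left out in turn, the pools gave log2 differences between 0.92 and 1.13. Hnrnpl passed in none of these fits, where its lowest limma adjusted p was 0.117, without wild-type pool 3. Since the array reads Hnrnpl by a single probe set, no other probe set of the gene could be set beside it.

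Markers of heart and striated muscle were high in mutant pool 1 alone, where 22 probe sets of 14 marker genes had a median log2 ratio of 1.70, against -0.22 to 0 in the other 5 pools. Without that pool the Hnrnpl difference was 1 on the log2 scale. Pool medians of the 24 gut and visceral endoderm marker probe sets separated the genotypes, but only by a small step. These medians were -0.01, 0 and 0.01 in the mutant pools, against -0.17, -0.04 and -0.19 in the wild-type pools. The part of the muscle and endoderm markers in the Hnrnpl result was not tested. Pool medians of the other 8 marker lists overlapped between genotypes. By sign, all 22 heart and muscle probe sets were higher in the mutant, and all 11 probe sets of posterior presomitic mesoderm markers were lower, with a median log2 difference of -0.37. None of the marker probe sets passed (limma, adjusted over the whole array). The probe sets whose pattern over the 6 arrays was most like that of Hnrnpl, by Pearson correlation of log2 ratios, were those of Tlcd1 (0.996), Anxa2 (0.994), Cog1 (0.985), Nek7 (0.984) and Prkch (0.984). Those most opposed were Snap91 (-0.971), Abcf3 (-0.969), Cysltr1 (-0.968), Hsd17b7 (-0.967) and Tll1 (-0.959). With only 6 arrays high correlations are common, and the 5 most like genes had log2 differences of only 0.22 to 0.30.

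Sars2, the seryl-tRNA synthetase of mitochondria, had the second probe set within 50 genes whose genotypes did not overlap. It read 1.022, 1.098 and 1.121 in the mutant pools, against 0.868, 0.880 and 0.978 in the wild-type pools. This was a log2 difference of 0.25 (SE 0.11, limma adjusted p = 0.9999), and the gap between the lowest mutant and the highest wild-type pool was narrow. Mrps12, a protein of the mitochondrial ribosome whose gene starts 146 bases away on the other strand, read 0.755, 1.008 and 1.142 in the mutant pools, against 0.992, 0.983 and 1.143 in the wild-type pools. Its log2 difference was -0.12 and its genotypes overlapped, with mutant pool 1 the lowest of the 6. Without that pool it was 0.05, and that of Sars2 was 0.29, so the opposite signs of the 2 genes rested on mutant pool 1, and the contrast between them was not tested.

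Zfp30, a zinc finger gene 50 genes from Dll3, read 1.032, 1.115 and 1.179 in the mutant pools, against 0.968, 0.916 and 0.918 in the wild-type pools. The difference on the log2 scale was 0.25 (SE 0.11, limma adjusted p = 0.9999). As with Sars2, every mutant pool was above every wild-type pool by a small step. For both genes the limma 95% interval had its lower end near 0.

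Ppp1r14a, an inhibitor of myosin phosphatase best known from smooth muscle, had the largest negative difference among the genes within 50 of Dll3. Its probe set read 0.642, 1.056 and 0.765 in the mutant pools, against 0.944, 1.175 and 1.619 in the wild-type pools. Mutant pool 2 was above wild-type pool 1, so the genotypes overlapped. Its difference was -0.60 on the log2 scale (SE 0.23, limma adjusted p = 0.9999), and without wild-type pool 3 it was -0.39. That pool was also the highest for the 11 probe sets of posterior presomitic mesoderm markers, with a median log2 ratio of 0.42. For those markers the mutant pools had -0.14, -0.25 and 0.08, against 0.12 and 0 in wild-type pools 1 and 2. Mutant pool 2 had the lowest marker median but the highest Ppp1r14a value of the mutant pools. The part of these markers in the Ppp1r14a values was not tested.

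**Figure D2:**
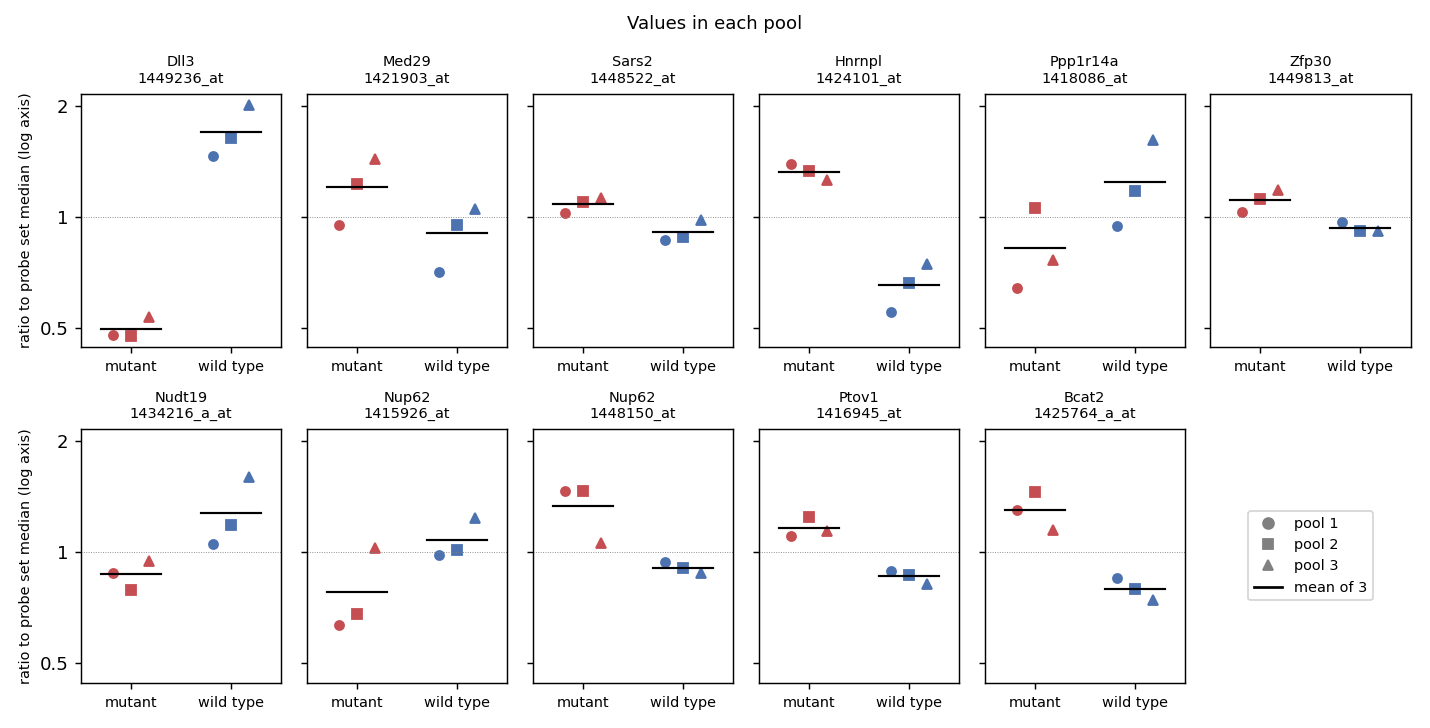
Ratio to the probe set's own median (log axis) in each pool for Dll3, the 7 member probe sets whose genotypes do not overlap and the 3 overlapping ones with a log2 difference of at least 0.4 in size; symbols are pools and lines are means of 3. Hnrnpl keeps its mutant pools between 1.257 and 1.390 and its wild-type pools between 0.553 and 0.743, while Ppp1r14a spreads widely in both genotypes.

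The genes next to Dll3 had small differences. Timm50, a subunit of the mitochondrial import machinery and the first gene on its side, read 0.923, 1.002 and 1.246 in the mutant pools, against 0.944, 0.998 and 1.175 in the wild-type pools. Its log2 difference was 0.02, with a 95% interval from -0.31 to 0.35. Supt5, an elongation factor of RNA polymerase II and the second gene, had -0.03. On the other side the nearest gene, Selenov, had 0.13, and the second, Eid2b, was not analysed here. Plekhg2, 4 genes away, had 0.01. On the Akt2 side the kinase gene Dyrk1b had 0.07, and Fbl, the methyltransferase fibrillarin of the nucleolus, had -0.12 and -0.09 by its 2 probe sets. Among the 16 probe sets of genes within 10 of Dll3, 0 were without overlap, where the array gave 5.03%, and 0 reached an unadjusted limma p below 0.05. A log2 difference of at least 0.4 was found for 1 of the 16 (6.25%), probe set 1421903_at of Med29, beside 0.968% of the array.

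Transcription and chromatin genes of the stretch gave values on both sides of 0. Paf1, of the elongation complex of that name, had a log2 difference of -0.15 and a low value, 0.729, in mutant pool 1, without which the difference was 0.01. Dpf1, a neural subunit of the BAF remodelling complex, had 0.17 and -0.06 by its 2 probe sets. Sirt2, a deacetylase, had 0.08, and Nfkbib, an inhibitor of NF-kappaB that starts 107 bases away on the other strand, had 0.09. Samd4b, an RNA-binding protein of the Smaug family, had 0.18, which was 0.03 without mutant pool 1, where it read 1.372.

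Among genes of signalling and the cytoskeleton, Akt2, a kinase of insulin signalling, had 0.19 and 0.23 by its 2 probe sets. The larger of these was 0.08 without wild-type pool 1, where it read 0.729. Actn4, an actin cross-linking alpha-actinin, had 0.15, and 0.02 without the same pool. Eif3k, a subunit of translation initiation factor 3, had 0.06, and its divergent neighbour Map4k1, a kinase of blood cells, had -0.04. Spint2, a membrane-bound inhibitor of serine proteases, had -0.21 and about 0 by its 2 probe sets. Fbxo17, an F-box protein, had -0.03, and Ech1, an enzyme of fatty acid oxidation, had -0.08.

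For several genes best known from other tissues the values were as follows. Ryr1, the calcium release channel of skeletal muscle, read 0.997 in mutant pool 1, the pool with the high muscle markers, and its log2 difference was 0.02. Rasgrp4, of mast cells, had -0.16, with no separation of the genotypes. The galectin genes Lgals4, of the gut, and Lgals7, of stratified epithelia, had 0.03 and about 0. Sycn, of pancreatic zymogen granules, had -0.04 and 0.19 by its 2 probe sets, the calpain gene Capn12 -0.06, and Lrfn1, a synaptic adhesion gene, 0.06. Leaving aside Hnrnpl, Sars2, Zfp30, Ppp1r14a and the probe set 1421903_at of Med29, the 31 remaining probe sets within 50 genes ran from -0.24 to 0.23, 16 higher and 15 lower by sign. The limma 95% interval of a member probe set reached a median of 0.30 to each side, before any adjustment for the number of probe sets tested.

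Wild-type pool 3 gave the highest value of the 6 pools for 15 of the 45 member probe sets (33.3%) and the lowest for 13 (28.9%). Over the whole array these shares were 34.0% and 29.3%, so the spread of that pool was not particular to the region. Mutant pool 1 was lowest for 12 of the 45 (26.7%), where the array gave 17.2%. SDs over the pools of a genotype had a median of 0.0909 in the mutant and 0.121 in the wild type among members, against 0.0839 and 0.113 over the array.

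Agreement between probe sets could be examined for 9 genes, 8 with 2 probe sets and Nup62 with 4. All probe sets of a gene had the same sign for 5 of the 9: Akt2, Fbl, Nudt19, Ptov1 and Spint2. Among genes with exactly 2 probe sets this was 5 of 8, or 62.5%, beside 57.5% of 3057 such genes on the array. This share includes the distant Nudt19 and Ptov1. Within 50 genes of Dll3 the signs were the same for Akt2, Fbl and Spint2 and mixed for Med29, Dpf1 and Sycn. Spint2 had -0.21 and a value of about 0, so its shared sign means little. For a test, the difference between 2 probe sets of a gene was compared between genotypes for each of the 12821 such pairs on the array. No pair passed (0%), and 173 pairs (1.35%) had an unadjusted limma p below 0.05. Of the 14 member pairs, 6 did so, those of Med29, Nudt19 and Ptov1 and 3 of the 6 pairs of Nup62. The genotypes did not overlap for the same 6 pairs, where the array gave 5.38%. Of these, 5 belonged to the distant genes, and the 3 pairs of Nup62 share probe set 1448150_at. Within 50 genes of Dll3 it was 1 of 6 pairs, that of Med29.

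Med29, a subunit of the Mediator complex 6 genes from Dll3, was the 1 gene within 50 whose probe sets parted in this way. Probe set 1421903_at read 0.949, 1.226 and 1.434 in the mutant pools, against 0.708, 0.949 and 1.051 in the wild-type pools, a log2 difference of 0.41. Probe set 1421902_at read 0.883, 0.806 and 1.017 in the mutant pools, against 1.119, 1.073 and 0.983 in the wild-type pools, a log2 difference of -0.24. In each the genotypes overlapped, but the difference between them, -0.65 (95% interval -1.13 to -0.17, limma adjusted p = 0.9998 over all pairs), separated the genotypes, if barely: mutant pool 1 stood at -0.104 and wild-type pool 3 at -0.096. The value of 1421903_at was 0.25 without wild-type pool 1 and 0.75 after quantile normalization.

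Nup62, a protein of the central channel of the nuclear pore, disagreed most among its own probe sets. Probe set 1448150_at read 1.466, 1.463 and 1.062 in the mutant pools, against 0.938, 0.904 and 0.878 in the wild-type pools, a log2 difference of 0.54. Probe set 1415926_at read 0.636, 0.681 and 1.026 in the mutant pools, against 0.985, 1.015 and 1.234 in the wild-type pools, a difference of -0.49. These 2 moved in opposite directions in mutant pools 1 and 2 and met in mutant pool 3. Probe set 1415925_a_at read 0.906, 1.009 and 1.025 in the mutant pools, against 0.939, 0.991 and 1.320 in the wild-type pools, a difference of -0.13. Probe set 1438917_x_at read 0.825, 0.954 and 1.047 in the mutant pools, against 0.991, 1.009 and 1.342 in the wild-type pools, a difference of -0.23. In both the genotypes overlapped, and wild-type pool 3 was the highest. The difference between 1415926_at and 1448150_at was -1.03 (95% interval -1.66 to -0.40, limma unadjusted p = 0.00445, adjusted p = 0.9998) and had the second smallest p of the 12821 pairs.

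Nudt19, a hydrolase of the Nudix family, had a difference of -0.53 by 1434216_a_at and -0.06 by 1432332_a_at. The first read 0.880, 0.790 and 0.948 in the mutant pools, against 1.052, 1.187 and 1.603 in the wild-type pools, and was the 1 lower member probe set without overlap. Without wild-type pool 3 its difference was -0.36. The second read 1.029, 0.887 and 0.971 in the mutant pools, against 0.845, 1.049 and 1.131 in the wild-type pools, and overlapped.

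Ptov1, a gene named for its overexpression in prostate tumours, had 0.44 by 1416945_at and 0.07 by 1438058_s_at. The first read 1.109, 1.242 and 1.143 in the mutant pools, against 0.891, 0.869 and 0.821 in the wild-type pools. The second read 0.918, 1.004 and 1.141 in the mutant pools, against 0.996, 1.017 and 0.905 in the wild-type pools. The suffix _s_at marks probes that can match several transcripts. Probe sets of Akt2, Fbl, Mrps12 and Nfkbib bear it too. A further suffix, _x_at, is borne by 2 member probe sets, 1438917_x_at of Nup62 and 1438968_x_at of Spint2. The part of these suffixes in the values and in the agreement between probe sets was not tested.

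**Figure D3:**
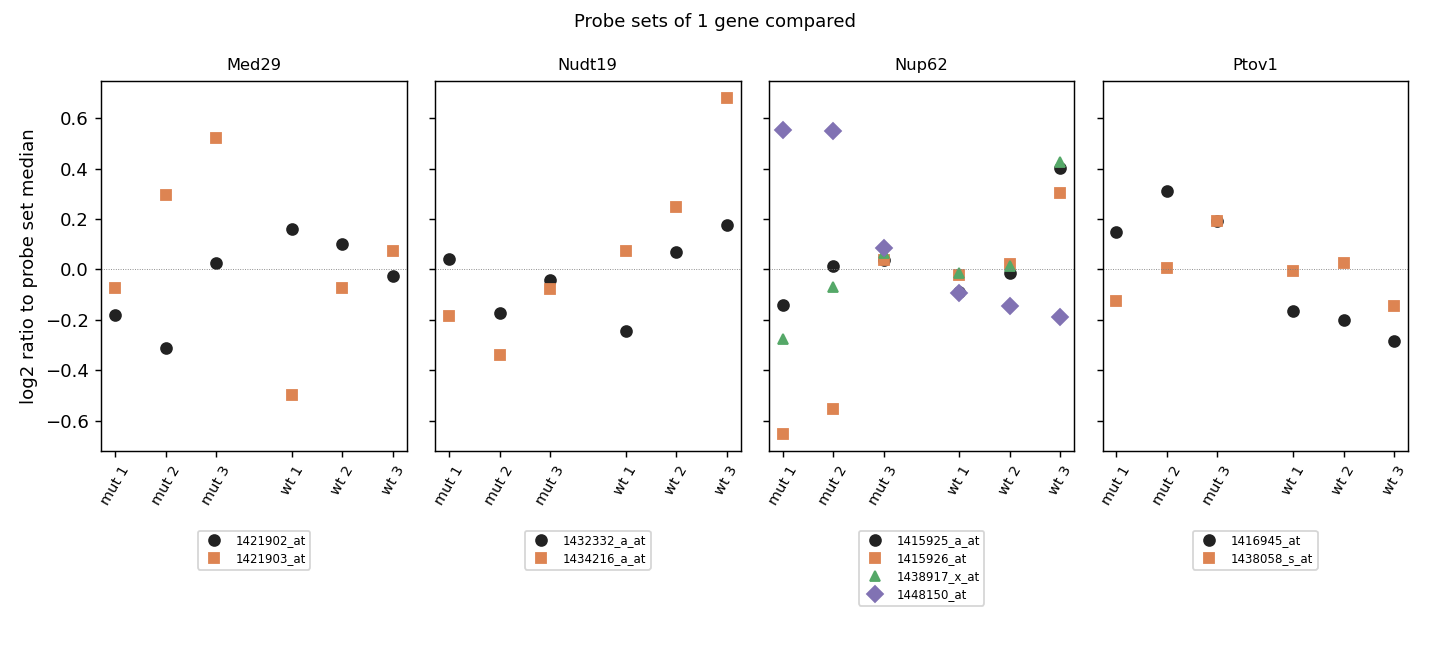
Log2 ratio to the probe set median in each pool (mut, mutant; wt, wild type) for the 4 members whose probe sets gave different genotype differences at an unadjusted limma p below 0.05; each symbol is 1 probe set. In Nup62, probe sets 1448150_at and 1415926_at lie far apart in mutant pools 1 and 2 and close together in mutant pool 3.

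Bcat2, which starts the breakdown of branched-chain amino acids in mitochondria, was the member with the second largest difference and the farthest from Dll3. Its 1 probe set read 1.300, 1.455 and 1.149 in the mutant pools, against 0.851, 0.794 and 0.742 in the wild-type pools. All mutant pools lay above the median of 1 and all wild-type pools below it. The means were 1.30 ± 0.153 in the mutant and 0.796 ± 0.0545 in the wild type (SD, n = 3 each), 1.63-fold higher in the mutant. The log2 difference of 0.71 (SE 0.12) did not pass (limma adjusted p = 0.9999), but did with arrays weighted by quality (0.72, limma adjusted p = 0.0193). That weighted fit gave 16.1% of the whole array an unadjusted p below 0.05, and under no other setting did Bcat2 pass. Its log2 difference lay between 0.62 and 0.79 without each pool in turn.

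To set the named genes in their surroundings, every protein-coding gene of chromosome 7 was ordered from Dll3, whether or not it was a member. Within 25 genes on each side there were 32 probe sets, of which 4 (12.5%) had no overlap. In the next 25 there were 2 of 35 (5.71%), from 51 to 100 genes 2 of 87 (2.30%), from there to 200 genes 4 of 74 (5.41%), and farther away 74 of 1189 (6.22%). Other chromosomes gave 4.91%. An unadjusted limma p below 0.05 was reached by 4 of the 37 probe sets within 50 genes on the Timm50 side, by Hnrnpl, Sars2, Ppp1r14a and Zfp30, and by 0 of the 30 on the Akt2 side. The whole array gave 1.16%. Non-members within 50 genes accounted for 31 probe sets, with 3 that had no overlap, Pld3 (0.18), Rab4b (0.18) and Zfp60 (-0.18), and 0 below that p.

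Median differences by band stayed near 0, at 0.058 within 25 genes, 0.0026 from 26 to 50, 0.040 from 51 to 100 and 0.014 from there to 200. The quartiles within 25 genes were -0.05 and 0.16, and those of the other chromosomes were -0.08 and 0.07. No non-member within 200 genes combined separate genotypes with an unadjusted p below 0.01. The largest non-member difference in that range that separated the genotypes was that of Rhpn2, 172 genes away and near Nudt19, at -0.63. It read 0.744, 0.774 and 0.999 in the mutant pools, against 1.103, 1.001 and 1.937 in the wild-type pools, so wild-type pool 3 was high as it was for Nudt19. The second probe set of Rhpn2 overlapped and gave -0.16 (SE 0.23). Among the neighbours of the distant Nup62, Ptov1 and Bcat2, Nosip had 0.34 with separate genotypes by 1 probe set and -0.16 with overlap by the other. Prmt1 had -0.87 with a single low value, 0.179, in mutant pool 2. Snrnp70 had -0.39 with overlap and was also lowest in mutant pool 2, at 0.528. Rhpn2, Nosip, Prmt1, Snrnp70, Pld3, Rab4b and Zfp60 were named after their values were seen.

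**Figure D4:**
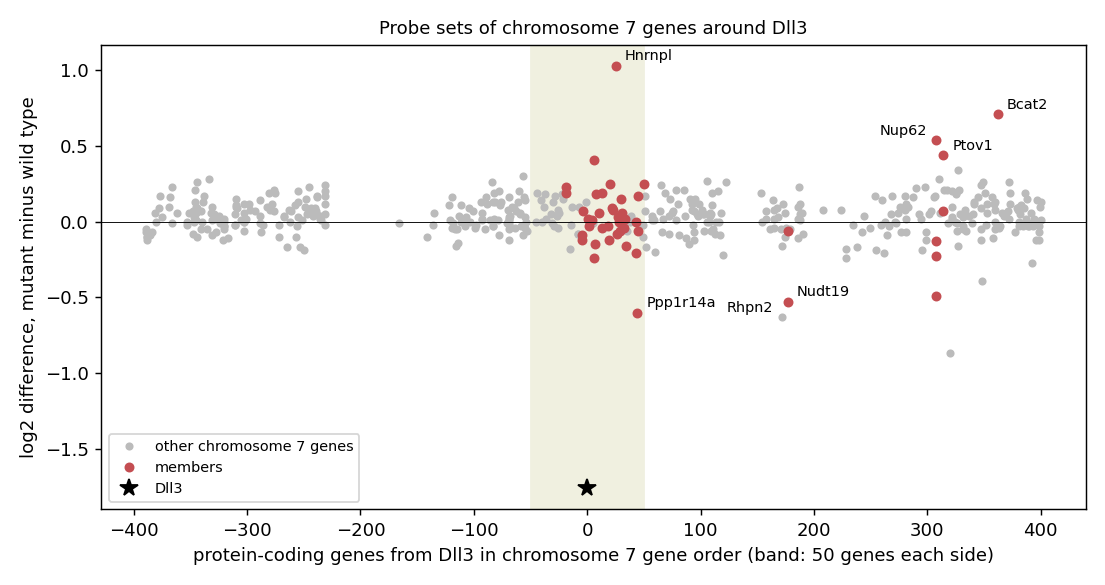
Log2 difference (mutant minus wild type) of probe sets of chromosome 7 genes up to 400 protein-coding genes on each side of Dll3, plotted by gene order, with members in red and the band of 50 genes on each side shaded. Within the band, Dll3 at -1.76, Hnrnpl at 1.03, Ppp1r14a at -0.60 and, less so, a Med29 probe set at 0.41 lie apart from the other probe sets.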

How the data were processed

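The table the authors deposited holds linear ratios. Judged by the values, a probe set was scaled to its middle value on the 6 arrays, which lies within 0.0011 of 1 for 92.8% of probe sets and lower for 1640, of which 0 are members. The submitters' processing notes list RMA and MAS5 without saying where each was used, so background correction, normalization and level are unknown. Array medians of the ratios ran from 0.985 to 1.008. Control probe sets (64) were left out. Genes were named by the platform annotation, updated by Entrez ID through RefSeq (GRCm38.p6), which held 20351 of the 20380 single-gene probe sets' IDs. RefSeq also gave gene order.

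Log2 ratios were fitted with limma 3.58.1 in R 4.3.3 (lmFit, eBayes, two-sided, genotype only) on all probe sets, and per-array differences of 2 probe sets of a gene on all 12821 pairs. Both fits were tested on simulated data. With 3 against 3 pools an exact permutation test cannot go below 0.10, so none was run. Pools are biological replicates per the labels. Members, lists and tests were chosen with earlier results of these data known. Values in every pool are given for Dll3, member probe sets without overlap, the other probe sets of those genes, and members with a log2 difference of at least 0.4 in size. Same-numbered pools deviated together with correlations of 0.209, 0.017 and 0.175, against -0.207 to 0.083 for pools of different numbers. Thus 0.209 and 0.175 were the highest, but all were low. The numbers were not taken as pairs in the main fit, and a fit with a replicate block is given below. Plots were drawn with matplotlib 3.10.9.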

Additional observations from a re-analysis of the deposited data

How the results depend on the processing

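Alternatives were quantile normalization, median centring, offsets of 1 and 32 before the log, leaving out probe sets with a median below 1, a trended and robust limma prior, array weights, a replicate block and leaving out each pool. Dll3 and Hnrnpl kept their sign under all of them. With quantile normalization 2 probe sets passed, 1 of them a member, Hnrnpl (1.07, limma adjusted p = 0.036). The other was Dll3, at -2.38 in place of -1.76 and with a larger limma adjusted p (0.0206) than in the main fit (0.00691). Array weights, whose fit stopped short of its convergence tolerance, passed 4, of which 2 were members, Hnrnpl (log2 difference 1, limma adjusted p = 0.000794) and Bcat2. They also gave 18 member probe sets an unadjusted p below 0.05, but 16.1% of the whole array with them. With an offset of 32, which shrinks every difference of a ratio, 0 passed and Dll3 read -0.052 (limma adjusted p = 0.271). Under the other settings that kept all pools, the limma adjusted p of Hnrnpl lay between 0.159 and 0.673. The replicate block kept 1 passing probe set (Dll3, -1.76, limma adjusted p = 0.00713), left Hnrnpl at 0.673 and changed no call.

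Without each pool in turn, 0 to 1 probe sets passed and Dll3 lay between -1.87 and -1.64. Member probe sets without overlap numbered 9 to 15, and those within 50 genes of Dll3, members or not, 10 to 15. With 5 pools separation is easier to reach, and 10.6% to 18% of the whole array then had none. Pairs of probe sets of a gene gave 0 calls under every setting run. Values hold no level and no signal over background, so dim probe sets could not be told from bright ones.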
